A study of Mus musculus with 4 samples.

Results

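Antioxidant and selenoprotein genes were followed in mouse liver from young to very old age. The 10 genes were taken by symbol from the count files, which hold 33924 gene symbols: the superoxide dismutases Sod1 and Sod2, catalase (Cat), glutathione peroxidase 1 (Gpx1), the peroxiredoxins Prdx1 and Prdx6, the glutathione synthesis gene Gclc, thioredoxin reductase 1 (Txnrd1), the quinone reductase Nqo1 and selenoprotein P (Sepp1, now also called Selenop). Livers came from male mice of the strain C57BL6 (C57BL/6Rj in the methods of the study) that were 3, 9, 15 or 21 months old, which the labels call young, adult, old and very old. For each age, 1 μg of liver RNA from each of 24 mice (4 mice at each of 6 times of the day) was pooled, and the pool gave 1 library of capped 5’-ends. The study searched in these libraries for genes that are stable enough with age to serve for normalisation. No treatment or mutation was used in any group. Since each age is 1 pooled library, no replicate error exists, and neither the spread between mice nor the time of day can be seen.

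Cells make superoxide and hydrogen peroxide as by-products of respiration and of oxidases. Superoxide dismutases convert superoxide to hydrogen peroxide, which catalase, glutathione peroxidases and peroxiredoxins then remove, with glutathione and thioredoxin as the reducing partners. Several of these enzymes carry selenocysteine, an amino acid that is inserted at a codon otherwise read as a stop, and the liver secretes selenoprotein P, which carries selenium to other organs.

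The transcription factor NRF2 binds antioxidant response elements near many of these genes, and the reads of these libraries start at capped ends, so the promoters of the genes are shown here. RefSeq promoters (assembly GRCm38.p6, from 250 bases before to 50 bases after the start) were found for 8 of the 10 genes, with 12 promoters in all, and none was matched for Gclc and Prdx6. The core motifs searched on both strands were TGACNNNGC and TGAGNNNGC, and 27.8% of all 32851 promoters of the table held at least 1 of them (12.4% and 17.6%). Among the 12 promoters, 3 held a motif, those of Sod1, Prdx1 and the second promoter of Txnrd1. TATAAA with its first base from 45 to 15 bases before the start, a search that was added after the promoters had been read, was found in 2.25% of all promoters and in those of Sod1 (37 bases before the start), Prdx1 (29 bases) and Nqo1 (29 bases). A match of letters is a description only, and it was not tested whether any factor binds there. These 3 promoters are shown for their TATAAA, from 100 bases (150 for Prdx1) before to 30 bases after the start. Capitals mark TATAAA and, for Sod1 and Prdx1, TGACNNNGC read on the other strand, which starts 56 and 133 bases before the start. Prdx1 also holds TGAGNNNGC on the other strand, from 15 bases after the start, left in lower case.
Sod1 (chr16:90220662-90220791, plus strand): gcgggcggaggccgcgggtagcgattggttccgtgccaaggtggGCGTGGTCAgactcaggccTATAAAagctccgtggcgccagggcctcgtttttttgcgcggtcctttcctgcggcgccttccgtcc
Prdx1 (chr4:116685449-116685628, plus strand): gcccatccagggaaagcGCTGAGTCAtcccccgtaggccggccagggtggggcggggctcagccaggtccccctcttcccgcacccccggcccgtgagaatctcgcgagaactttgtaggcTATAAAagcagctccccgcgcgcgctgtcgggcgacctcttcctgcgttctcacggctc
Nqo1 (chr8:107403176-107403305, minus strand): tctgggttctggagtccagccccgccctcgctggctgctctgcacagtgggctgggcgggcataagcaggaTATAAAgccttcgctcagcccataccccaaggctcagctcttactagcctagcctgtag

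The second promoter of Txnrd1 is shown because TGACNNNGC, on the other strand and in capitals, starts 92 bases before the start.
Txnrd1, its second listed promoter (chr10:82859106-82859235, plus strand): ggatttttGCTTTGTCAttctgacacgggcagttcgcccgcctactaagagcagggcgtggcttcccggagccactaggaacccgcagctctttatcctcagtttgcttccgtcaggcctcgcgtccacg

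The following promoters belong to the genes with the most counts, and none of them held either core motif or TATAAA in the window from 45 to 15 bases. For Sepp1, TATAAA starts 10 bases before the start, outside the window, and is left in lower case.
Cat (chr2:103485124-103485253, minus strand): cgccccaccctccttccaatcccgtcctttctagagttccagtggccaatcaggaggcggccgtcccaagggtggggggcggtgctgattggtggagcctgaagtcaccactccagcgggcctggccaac
Gpx1 (chr9:108338980-108339109, plus strand): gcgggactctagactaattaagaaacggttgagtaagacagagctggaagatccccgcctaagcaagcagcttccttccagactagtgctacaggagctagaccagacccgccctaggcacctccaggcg
Sepp1, its last listed promoter (chr15:3270877-3271006, plus strand): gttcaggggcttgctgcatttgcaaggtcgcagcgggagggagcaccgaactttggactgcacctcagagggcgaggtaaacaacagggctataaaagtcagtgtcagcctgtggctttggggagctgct

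In the annotation of mm9 (NCBIM37) all 10 genes are protein-coding and no other gene overlaps them. Sod1 lies on chromosome 16 (plus strand, 90220987 to 90226567), Sod2 on chromosome 17 (plus, 13200705 to 13210985), Cat on chromosome 2 (minus, 103294006 to 103325317) and Gpx1 on chromosome 9 (plus, 108241607 to 108242671). Prdx1 lies on chromosome 4 (plus, 116358149 to 116373427), Prdx6 on chromosome 1 (minus, 163170243 to 163181350) and Gclc on chromosome 9 (plus, 77602342 to 77642292). Txnrd1 is on chromosome 10 (plus, 82296696 to 82360469), Nqo1 on chromosome 8 (minus, 109912125 to 109927106) and Sepp1 on chromosome 15 (plus, 3218547 to 3230508).

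The libraries had 955934, 958586, 525772 and 735962 counts on genes at 3, 9, 15 and 21 months, and the 15 month library was thus the least precise. Of all records, only 6.67 to 8.42% fell on genes, and 72.2 to 76.7% were left out because their alignment was not unique. The 10 genes together took 1.003%, 0.809%, 0.888% and 0.773% of the gene counts of these libraries. Markers of hepatocytes were high in every library, with up to 11.2% of the counts on 8 genes such as Alb and Apoa1. For comparison between ages, counts were divided by the geometric mean over the 8704 genes counted in all of the libraries, the same centre as in the centred log-ratio (clr), and are called scaled counts. On this scale the 497 genes with at least 100 counts in every library had median ratios to 3 months of 0.992, 0.904 and 0.972 at 9, 15 and 21 months, so that abundant genes as a group were below 1 at 15 months.

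Across the 4 libraries, 6 of the 9 genes with a count in every library differed beyond counting noise (Pearson's chi-square test, p-values adjusted by Benjamini-Hochberg across the 8704 genes), namely Sod1, Sod2, Cat, Gpx1, Gclc and Sepp1. The same test called 25.3% of the 8704 genes, 44.1% of the 1956 genes with at least 20 counts in every library, to which all 9 genes belong, and 77.3% of those with at least 100 counts, where 4 of 5 antioxidant genes were called. The count among the abundant members was thus near the background. The test compares the reads of 4 libraries and not the ages. Of the 9 genes, 5 had their highest scaled count at 3 months (Sod2, Cat, Gpx1, Gclc and Sepp1), and of the 8704 genes 26.4% were highest there. Without the 3 month pool the calls of Sod2 (adjusted p = 0.506) and Sepp1 (adjusted p = 0.134) were lost, and without the 15 month pool that of Sod1 (adjusted p = 0.628).

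**Figure D1:**
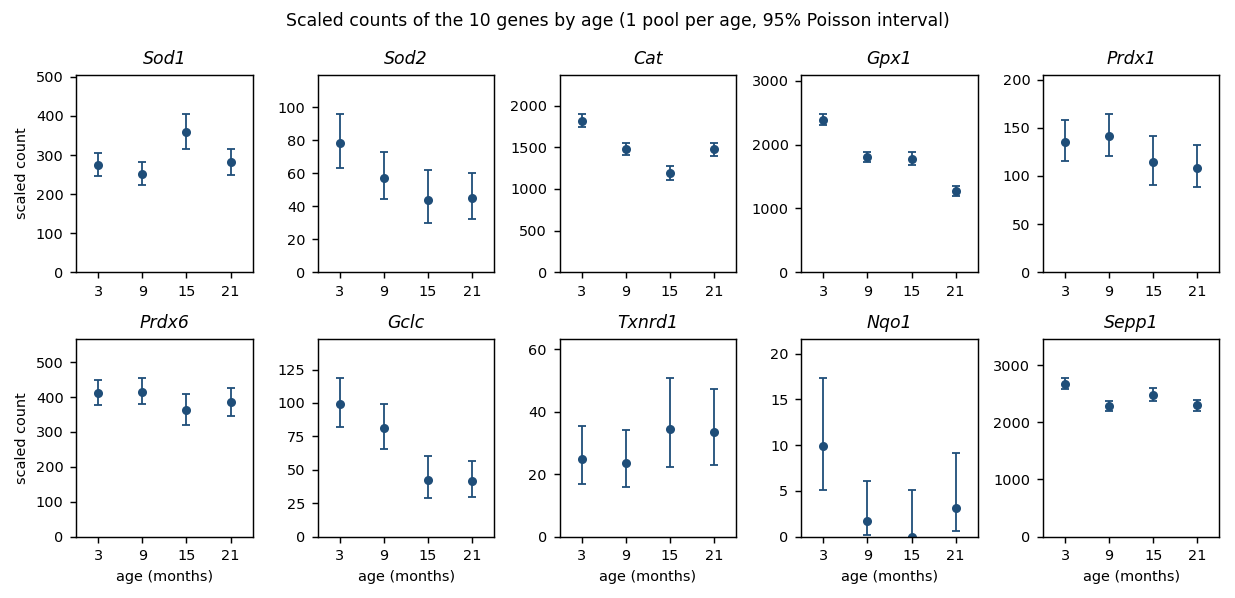
Counts scaled between libraries (vertical axes, from 0) against age in months for the 10 genes, 1 point per pooled library, with 95% intervals that cover counting error only. Gpx1 had its highest scaled count, 2388, at 3 months and its lowest, 1272, at 21 months, Gclc went from 99.1 to 41.8, and Sod1 was highest at 15 months with 358.

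The copper and zinc superoxide dismutase of the cytosol, Sod1, was the exception among the called genes. Its counts were 333, 298, 261 and 269 at 3, 9, 15 and 21 months, or 275.0, 252, 358 and 281 scaled counts. The 15 month library was the high one, and the other ages lay close together. The ratio to 3 months was 1.30 at 15 months (95% interval from 1.10 to 1.54), but 0.915 at 9 months (0.780 to 1.07) and 1.02 at 21 months (0.867 to 1.20), and the direction at 21 months turned with the scaling (0.9498 to 1.06). The adjusted p of the chi-square test was 0.00283. Of the 35-base windows in the first 100 bases of the Sod1 transcript, 16.7% matched the pseudogene Gm8566 with at most 1 mismatch. This symbol had 52, 41, 16 and 19 counts of its own. Some Sod1 reads may have been left out as not unique or counted there, which was not tested.

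Sod2, the manganese enzyme of mitochondria, had 95, 68, 32 and 43 counts. The scaled counts were 78.5, 57.4, 43.9 and 44.9, highest at 3 months and nearly equal at 15 and 21 months. The ratios to 3 months were 0.732 (0.528 to 1.01), 0.560 (0.363 to 0.844) and 0.572 (0.390 to 0.829), with an adjusted p of 0.0176. Neighbouring ages in this order could not be told apart at this depth, with 0.782 (0.521 to 1.16) for 21 over 9 months and 1.02 (0.632 to 1.67) for 21 over 15 months.

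Catalase, which breaks down hydrogen peroxide in peroxisomes, had 2205, 1749, 867 and 1413 counts. As scaled counts these were 1821, 1477, 1190.41 and 1476. The 3 month library was highest, the 9 and 21 month libraries were level (ratio 0.999) and the 15 month library was lowest. The ratios to 3 months were 0.811 (0.761 to 0.864), 0.654 (0.604 to 0.707) and 0.810 (0.757 to 0.867), and the level at 21 months was 1.24 times that at 15 months (1.14 to 1.35). The adjusted p was 3.47e-25. The ratio at 15 months ranged from 0.586 to 0.715 over the scalings, on both sides of the 1.5-fold limit.

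Gpx1, the selenium-dependent peroxidase of cytosol and mitochondria, had 2892, 2144, 1297 and 1218 counts. The scaled counts of 2388, 1811, 1781 and 1272 put 3 months highest and 21 months lowest. The 9 and 15 month libraries did not differ beyond counting error (15 over 9 months 0.984, 0.917 to 1.05). Relative to 3 months the ratios were 0.758 (0.717 to 0.802), 0.746 (0.698 to 0.796) and 0.533 (0.498 to 0.570), and 21 over 15 months gave 0.714 (0.660 to 0.773). The adjusted p was 1.59e-76, the smallest of the members, and over the scalings the ratio at 21 months stayed between 0.495 and 0.551.

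Peroxiredoxins reduce peroxides through a reactive cysteine. Prdx1, a cytosolic member that takes its electrons from thioredoxin, had 164, 167, 83 and 104 counts, or 135, 141, 114 and 109 scaled counts. Prdx6, which uses glutathione instead, had 498, 492, 264 and 369 counts, or 411, 416, 362 and 385 scaled counts. Neither passed the chi-square test (adjusted p = 0.226 and 0.387), although 21 over 9 months gave 0.770 for Prdx1 (0.597 to 0.990). The ratios at 21 months were 0.802 for Prdx1 (0.621 to 1.03) and 0.937 for Prdx6 (0.817 to 1.07), so that changes inside these intervals could not be detected. For Prdx6 28.6% of the windows matched a second place, Prdx6b, which had 3 to 5 counts, and for Prdx1 10.1% matched Gm7204 with 4 to 16 counts.

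Gclc encodes the catalytic subunit of the ligase that makes the rate-limiting step of glutathione synthesis. It had 120, 96, 31 and 40 counts, or 99.1, 81.1, 42.6 and 41.8 scaled counts. The 3 and 9 month libraries were high and the 15 and 21 month libraries low, a split that was read from these values themselves. The ratios to 3 months were 0.818 (0.619 to 1.08), 0.429 (0.280 to 0.642) and 0.421 (0.287 to 0.607), and the step from 9 to 15 months was 0.525 (0.338 to 0.794), while 21 over 15 months was 0.981 (0.599 to 1.62). The adjusted p was 2.79e-06. Gclc was the member with the lowest ratios at 15 and 21 months among those with a count in every library, and the only one past 2-fold.

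Txnrd1, a selenoprotein that reduces thioredoxin in the cytosol, had 30, 28, 25 and 32 counts, or 24.8, 23.6, 34.3 and 33.4 scaled counts. It did not pass the chi-square test (adjusted p = 0.491), and its intervals were wide: the ratio at 15 months was 1.39 (0.781 to 2.44) and at 21 months 1.35 (0.794 to 2.30). Nqo1, a quinone reductase, had only 12, 2, 0 and 3 counts and did not enter the chi-square test. Its 9 over 3 month ratio was 0.170 (0.0185 to 0.766) and its 21 over 3 month ratio 0.316 (0.0572 to 1.17). At 15 months no read was counted, and the exact interval of the ratio to 3 months reached up to 0.598.

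Sepp1 had 3241, 2708, 1807 and 2201 counts, or 2677, 2287, 2481 and 2298 scaled counts. The 3 month library was highest, and the whole range was small. The ratios to 3 months were 0.854 (0.812 to 0.899), 0.927 (0.875 to 0.982) and 0.859 (0.813 to 0.907), with an adjusted p of 1.02e-08. The direction at 15 months turned with the scaling (0.831 to 1.01).

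**Figure D2:**
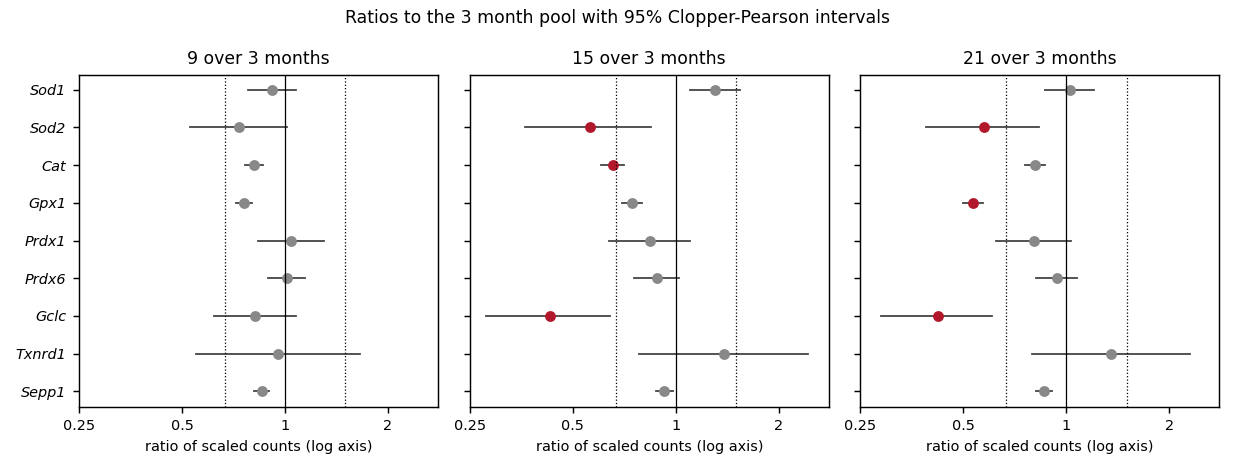
Ratios of scaled counts to the 3 month library (log axis) for the 9 members with a count in every library at 9, 15 and 21 months, with exact 95% intervals of counting error, dotted lines at 1.5-fold and red points for genes past it whose interval leaves out 1. Gclc (0.429 and 0.421) and Sod2 (0.560 and 0.572) are red at 15 and 21 months, Cat at 15 months and Gpx1 at 21 months.

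With a limit of 1.5-fold and an interval that left out 1, none of the 9 members with a count in every library was past the limit at 9 months. At 15 months 3 of these 9 genes were lower (Sod2, Cat and Gclc), and at 21 months 3 (Sod2, Gpx1 and Gclc). None was higher at any age. Nqo1, which is outside this set because of its 0 at 15 months, was past the limit at 9 months (0.170, 0.0185 to 0.766). Over all 8704 genes 9.13%, 8.62% and 8.47% were lower at 9, 15 and 21 months, and 7.80%, 7.81% and 7.88% were higher. Of the genes with at least 20 counts in every library, 13.4% were lower at 15 months and 9.92% at 21 months. The 3 comparisons share the 3 month library, so that its own deviation enters each of them.

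At each age, 7 of the 9 members had a ratio below 1. This held for 48.9%, 52.8% and 50.3% of the 8704 genes at 9, 15 and 21 months, and for 53.3%, 56.9% and 52.5% of those with at least 20 counts. The median ratios of the 9 members were 0.854, 0.841 and 0.810, against 0.978, 0.938 and 0.983 for the genes with at least 20 counts. The members are not independent, and no test of the group was made.

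**Figure D3:**
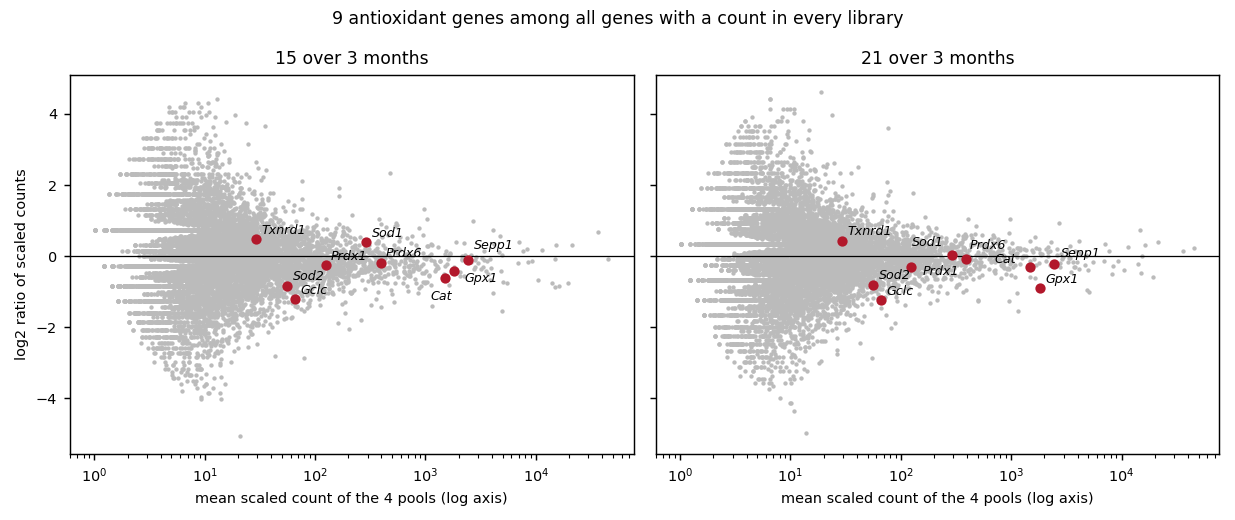
Log2 ratio of scaled counts at 15 months (left) and 21 months (right) over 3 months, against the mean scaled count (log axis), for all 8704 genes with a count in every library in grey and the 9 members in red. Gclc (ratios 0.429 and 0.421) and Sod2 (0.560 and 0.572) lie below the line at 0 in both panels.

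A linear change with age was tested with edgeR's quasi-likelihood test. Its spread came from the departure of the 4 libraries from a straight line (2 residual degrees of freedom per gene). This spread was shared across all genes tested, so that a gene was not weighed against its own 4 values alone. None of the 9 members passed (adjusted p from 0.440 to 0.998). Of the 5569 genes tested, 0.0539% were called lower with age and 0.0539% higher, which is 3 genes in each direction. The unadjusted p was under 0.05 for 290 genes, with 2 members among them. Gclc had a fitted log2 change from 3 to 21 months of -1.35 ± 0.46 (SE), with an unadjusted p of 0.00435 and an adjusted p of 0.440 in edgeR. Each SE given here is the absolute change divided by the square root of edgeR's F statistic. Gpx1 had a change of -0.78 ± 0.33, with an unadjusted p of 0.0233 and an adjusted p of 0.808 in edgeR. Of the others, Sod2 had a fitted change of -0.80 ± 0.46, Cat of -0.32 ± 0.32, Sepp1 of -0.12 ± 0.32 and Sod1 of 0.24 ± 0.37. DESeq2's Wald test called no gene, with unadjusted p-values of 0.00725 for Gpx1 and 0.0306 for Gclc. By the chi-square test above, 6 of the 9 members differed between libraries beyond counting noise, and Prdx1, Prdx6 and Txnrd1 did not. For none of the 9 members did a straight trend with age pass after adjustment.

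Of 88 other genes of the pathway in 9 lists by role, 86 symbols were found, 8 of them (such as Slc7a11 and Gpx2) had no count in any library, and 67 had a count in every library. The chi-square test called 27 of the 67 (40.3%), against 25.3% of the 8704 genes. Of those with at least 20 counts in every library it called 17 of 34, against 44.1% of all genes at that depth, and of those with at least 100 counts 10 of 11, against 77.3%. Past 1.5-fold, 7 of the 67 were lower and 5 higher at 9 months (9.13% and 7.80% of the 8704 genes), 15 lower and 3 higher at 15 months (8.62% and 7.81%) and 14 lower and 5 higher at 21 months (8.47% and 7.88%). No test of the lists was made. The median ratios of the 67 genes were 0.919, 0.831 and 0.835. In the edgeR trend, 0 of 56 tested were called (5 at an unadjusted p under 0.05), with 0.281 of Gstp1 as the smallest adjusted p.

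**Figure D4:**
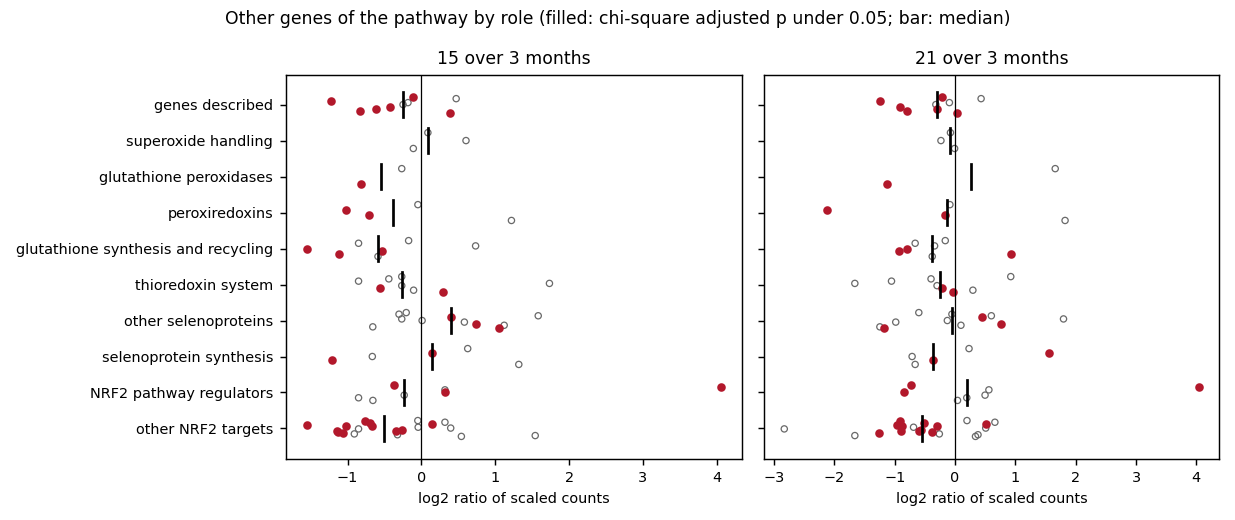
Log2 ratios of scaled counts at 15 months (left) and 21 months (right) over 3 months, 1 point per gene with a count in every library, with the 9 members in the top row and the other genes in 1 row per list. Filled points passed the chi-square test, bars are medians, and the horizontal scales of the panels differ. The other NRF2 targets had median ratios of 0.708 and 0.688, and the superoxide handling genes 1.06 and 0.948.

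Among the partners of the dismutases none of 3 genes passed the test. Ccs, the chaperone that loads copper into Sod1, had 58, 59, 53 and 39 counts (adjusted p = 0.0924). Atox1, another copper chaperone, had 108, 111, 69 and 81 counts (adjusted p = 0.913). Of the other glutathione peroxidases 1 of 2 passed, Gpx4, the selenoprotein that reduces lipid peroxides, with 44, 53, 15 and 16 counts and a ratio of 0.460 at 21 months (adjusted p = 0.0058).

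Of 4 other peroxiredoxins 2 passed. Prdx4 of the secretory pathway had 44, 28, 13 and 8 counts (adjusted p = 0.00238). Its ratios were 0.651 (0.390 to 1.07), 0.491 (0.243 to 0.929) and 0.230 (0.0935 to 0.494), so that at 9 months the interval included 1. The call of Prdx4 was lost without the 3 month pool and also without the 21 month pool. Prdx3 of mitochondria had 172, 143, 63 and 121 counts and was lowest at 15 months (ratio 0.609, adjusted p = 0.038).

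Of 7 genes of glutathione synthesis and recycling 3 passed. Gsr, which regenerates glutathione, had 60, 22, 25 and 25 counts (adjusted p = 0.00244), with ratios of 0.375 (0.219 to 0.620), 0.693 (0.416 to 1.12) and 0.527 (0.317 to 0.853), so that at 15 months the interval included 1. Its call was lost without the 9 month pool (adjusted p = 0.0781) and also without the 3 month pool. Gss, the second enzyme of synthesis after Gclc, had 18, 26, 5 and 27 counts (adjusted p = 0.037), with a ratio of 1.90 at 21 months (1.01 to 3.66) and of 0.462 at 15 months, where the interval included 1 (0.134 to 1.29). The glutaredoxin Glrx had 44, 34, 9 and 20 counts (adjusted p = 0.0416), lowest at 15 months (ratio 0.340).

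In the thioredoxin system 2 of 8 passed. Thioredoxin itself (Txn1) had 166, 131, 122 and 128 counts (ratios 0.807, 1.22 and 0.975, adjusted p = 0.0471), and its inhibitor Txnip had 22, 38, 9 and 15 counts (adjusted p = 0.0404). Neither followed one direction with age.

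Of 11 other selenoproteins 3 passed, in differing directions. The methionine sulfoxide reductase Sepx1 (Msrb1) had 205, 252, 162 and 222 counts and ratios of 1.26, 1.31 and 1.37, above 3 months at every later age (adjusted p = 0.0316). Dio1, the deiodinase that activates thyroid hormone in liver, had 20, 11, 25 and 7 counts, with ratios of 2.08 at 15 months (1.11 to 3.95) and 0.443 at 21 months (0.158 to 1.09; adjusted p = 0.000373). H47 (Selenos) had 3, 15, 3 and 4 counts (adjusted p = 0.0345).

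Of 5 genes of selenoprotein synthesis 2 passed. Eefsec, the elongation factor for selenocysteine, had 12, 16, 8 and 28 counts with a ratio of 2.95 at 21 months (adjusted p = 0.0113). Secisbp2l, related to the protein that binds selenoprotein mRNAs, had 77, 50, 20 and 47 counts and was lowest at 15 months (0.432, adjusted p = 0.0206).

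Among 7 regulators of NRF2, 3 passed, and neither Nfe2l2, which encodes NRF2 (118, 94, 45 and 96 counts), nor its inhibitor Keap1 (21, 19, 7 and 19 counts) was one of them, both named here although they fall outside the rule for names. Sqstm1, which binds KEAP1, had 217, 133, 101 and 103 counts and ratios of 0.627, 0.774 and 0.600 (adjusted p = 9.18e-05). Cul3, a subunit of the ligase that marks NRF2 for degradation, had 1, 18, 10 and 13 counts, and with 1 count at 3 months its 9 month ratio of 18.4 has an interval from 2.91 to 767 (adjusted p = 0.0114). Bach1, a repressor at the same elements, had 16, 30, 12 and 7 counts (adjusted p = 0.0385).

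Of the 20 other known NRF2 targets 11 passed. All 11 were among the 15 genes of the list with at least 20 counts in every library, a depth at which 44.1% of all genes were called. With at least 100 counts 7 of 7 passed, against 77.3% of all genes. The list had 4, 9 and 7 lower past 1.5-fold at 9, 15 and 21 months and 1, 0 and 0 higher. Over the 8704 genes 9.13%, 8.62% and 8.47% were lower and 7.80%, 7.81% and 7.88% higher. With at least 20 counts in every library, 13.4% were lower at 15 months and 9.92% at 21 months. The abundant glutathione transferase Gstp1 had 9437, 6068, 1941 and 3848 counts and ratios of 0.658, 0.342 and 0.516. It has a near-identical neighbour, Gstp2, so that some of its reads may have been left out as not unique or counted there, which was not tested. Tkt, a transketolase of the pentose phosphate pathway, had 1048, 429, 303 and 347 counts (ratios 0.419, 0.481 and 0.419, adjusted p = 8.82e-83), and only the 3 month library stood apart. The ferritin light chain Ftl1 had 214, 147, 58 and 91 counts (0.702, 0.451 and 0.538, adjusted p = 3.59e-08), and the malic enzyme Me1 had 84, 39, 23 and 51 counts (0.475, 0.455 and 0.768, adjusted p = 0.000933). The list is of known targets in general, and NRF2 activity was not measured.

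Of the 20 called genes named from the lists, 12 lost the call without the 3 month pool, Tkt among them (adjusted p = 0.347), 6 without the 9 month pool, 7 without the 15 month pool and 6 without the 21 month pool. Another scaling or filter took the call from 7 (Prdx3, Glrx, Txnip, Bach1, H47, Txn1 and Sepx1). Prdx4, Gss, Dio1, Eefsec, Cul3, Glrx, Txnip, Bach1 and H47 had too few counts in a library for the lower of the minimum counts tried. These genes were not tested under that filter, so whether their calls would hold there cannot be seen. Gstp1 and Ftl1 kept the call under all of these settings.

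In bulk liver, fewer cells of a type cannot be told apart from less RNA per cell. Some markers of other cell types also differed between libraries. Over all 8704 genes the chi-square test called 25.3%. It called 44.1% of those with at least 20 counts in every library and 77.3% of those with at least 100. The summed scaled counts of 6 red blood cell genes, cells which are rich in catalase and peroxidase, were 1276, 1917, 1236 and 1058. Of these genes 3 of 5 tested were called, and Slc4a1 was at 0 at 21 months. Single red blood cell markers went in differing directions. The ratios at 9, 15 and 21 months were 1.79, 1.15 and 0.902 for Hbb-b1, which made up most of the sum, but 0.703, 0.362 and 0.705 for Alas2. For 10 genes of Kupffer cells and leukocytes the sums were 591, 726, 673 and 762 (6 of 10 called), for 7 of sinusoidal endothelium 555, 481, 442 and 542 (4 of 7 called), for 7 of stellate cells 282, 475, 453 and 427 (3 of 7 called) and for 6 of bile duct 23.9, 13.5, 30.2 and 19.8 (1 of 3 called, Epcam at 0 in all). The 8 hepatocyte genes summed to 78973, 86399, 73480 and 85839 (7 of 8 called). The endothelial sums were highest at 3 months and lowest at 15 months, as were Cat and Sod2. Single endothelial markers went in differing directions. The ratios were 0.806, 0.425 and 0.545 for Stab2, but 1.09, 1.03 and 1.51 for Stab1 and 2.51, 1.16 and 2.02 for Lyve1. The part of these cells in the results was not tested.

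The gene nearest to each abundant member in its profile over the 4 ages was taken by Euclidean distance of the clr values, centred on their mean, among the 497 genes with at least 100 counts in every library. For Gpx1 it was Cyp2d40 (522, 369, 215 and 225 counts, distance 0.0840) and for Cat it was Hsp90ab1 (944, 770, 369 and 581 counts, 0.0486). Sod1 was nearest to haptoglobin, Hp (2541, 2256, 1967 and 2215 counts, 0.0723), Prdx6 to Ugt2b36 (1008, 965, 513 and 720 counts, 0.0321) and Sepp1 to P4hb (547, 462, 308 and 379 counts, 0.0142). With 4 values per gene such likeness is a description of these libraries only.

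**Figure D5:**
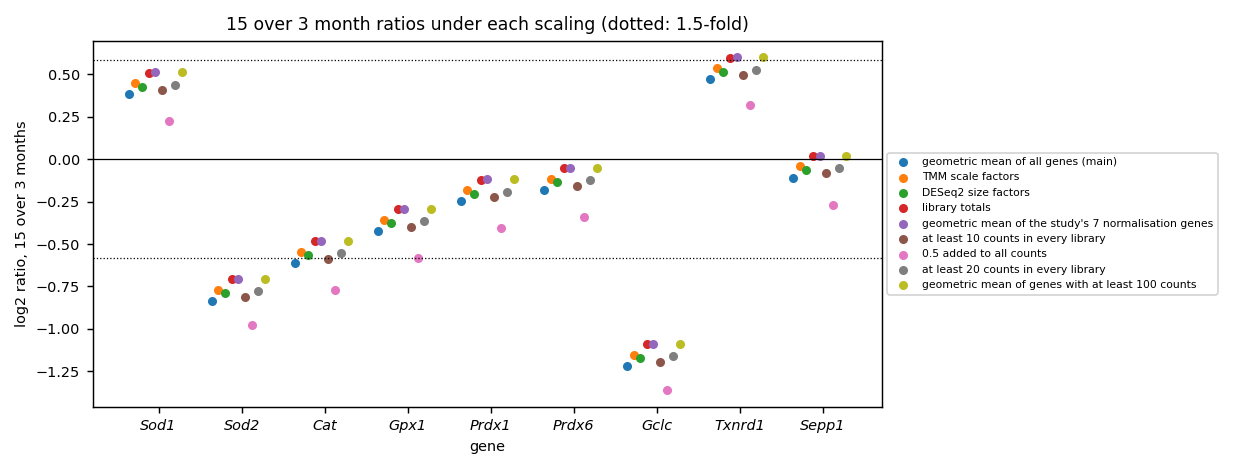
Log2 ratio at 15 over 3 months (vertical axis) of the 9 members with a count in every library, 1 colour per scaling or filter, with the scaling of the report marked main and dotted lines at 1.5-fold. Gclc stays between ratios of 0.390 and 0.470, whereas the points of Sepp1 run from 0.831 to 1.01 and lie on both sides of the line at 0.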

How the data were processed

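Gene counts from 4 libraries, 1 pool per age, were analysed. The authors digested uncapped RNA, sequenced 35 bp reads from the 5’-ends on 1 lane of a SOLiD instrument and mapped them to mm9 with the CLC Genomic workbench (similarity and length fraction 0.95). The deposited files hold raw counts per gene symbol. The submitters' processing notes name HTSeq, and strand setting and version are not given in the sources used here. Rows that name no gene were left out: alignments that were not unique made up 72.2 to 76.7% of records, records without a feature 15.5 to 19.0% and ambiguous records 0.377 to 0.473%. Counts on genes ranged from 525772 to 958586. All intervals and limits cover counting error only, since each age had 1 library. PCR reads are not independent molecules, so the intervals and the chi-square test may understate even this error.

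Counts were divided by the geometric mean over the 8704 genes above 0 in every library. Libraries were compared in pairs by ratio with exact Clopper-Pearson intervals (95%), which were not adjusted for the number of genes. All 4 libraries were compared by a chi-square test after Pearson (degrees of freedom: 3). A linear change with age in months was tested by edgeR's quasi-likelihood test (TMM, filterByExpr). The p-values of both tests were adjusted by Benjamini-Hochberg over all genes tested, with a threshold of 0.05. The tests were tried on simulated data with larger changes than those of the members tested. For the trend, the simulated spread was also smaller than in these libraries. How the tests behave at the changes and spread seen here was not tested. Alternatives were TMM, DESeq2 size factors, library totals, the 7 normalisation genes of the study, a minimum of 10 counts, 0.5 added to counts, a 2-fold limit, leaving out each pool, and for the trend DESeq2's Wald test and other filters. The added 0.5 entered the scale factors and ratios, while the chi-square test and the intervals kept the unchanged counts. A minimum of 20 counts and scaling by genes with at least 100 counts were added after seeing the data.

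The members and lists were chosen with earlier results of these data known. All 10 members are named. From each pathway list, up to 4 genes that passed the chi-square test are named, in order of the largest log2 ratio to 3 months, or the 2 with the most counts where none passed. For each member with at least 100 counts in every library, the gene with the nearest profile is named. The software was Python 3.11.15, numpy 2.4.6, pandas 2.3.3, scipy 1.17.1, matplotlib 3.10.9, R 4.3.3, edgeR 4.0.16 and DESeq2 1.42.0. Positions came from GENCODE M1 (NCBIM37) and promoters from RefSeq (GRCm38.p6). Both builds are given as found, without conversion.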

Additional observations from a re-analysis of the deposited data

How the results depend on the processing

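The precision was limited by 1 library per age and by depth, most of all at 15 months. No paired analysis was possible because each age had 1 library and the labels give no replicate numbers. Of the members with a count in every library 0 were past 1.5-fold at 9 months, but 1 with the study's 7 normalisation genes (Sod2) and, with 0.5 added to all counts so that Nqo1 entered, 1 (Nqo1). With a 2-fold limit 1 member remained at 15 months and 1 at 21 months, Gclc in both, in place of 3 and 3. The number of members that differed between libraries ranged from 4 to 8 over all settings, with 6 in the report. It was 4 without the 3 month pool, and 8 in the setting with 0.5 added. There the 0.5 changed the scale only, and the chi-square test took the unchanged counts of 15067 genes with a count in any library. Prdx6 (adjusted p = 0.0425) and Nqo1 (adjusted p = 0.0104) joined in it. Cat at 15 months fell inside 1.5-fold under TMM, DESeq2 size factors, library totals, the 7 genes, the minimum of 20 counts and the scaling by abundant genes. The linear change with age was called for 0 members under every alternative run. The median of all genes shifted by more than 0.1 (log2) at 15 months under library totals, the 7 genes and the scaling by abundant genes (each 0.13) and with 0.5 added (-0.16), at 9 months under the 7 genes (-0.16) and at 21 months with 0.5 added (-0.11). The cause of these differences was not tested.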
